A study of Mus musculus with 76 samples.

Results

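The comparison described here sets gamma irradiation against a mixed radiation field in the right ventricle (RV) of male C57Bl/6J mice. Its 18 libraries were chosen by their labels from the 76 in the series: 10 from mice labelled Gamma at 100 cGy (titles M16 to M20 and M36 to M40) and 8 from mice labelled Mix at 50 cGy (M1, M4, M5 and M21 to M25). All 18 came from RV tissue of mice on the normal diet (ND), and no library carried another treatment in its labels. The field and the dose differed together, so the radiation type and its dose cannot be told apart. The labels do not say which particles made up the mixed field, and the age of the irradiated mice at collection is not given in the sources used here. As the unirradiated level, the text gives the 10 sham libraries of male mice on ND (M6 to M10 and M26 to M30), which entered no test against the irradiated groups. Per the study methods the sham mice of M26 to M30 were older at collection than those of M6 to M10, so the sham range spans 2 ages and its titles follow age.

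Gamma rays are photons that deposit energy sparsely along their path, whereas some charged particles deposit it more densely. In the heart, ionizing radiation is best known for DNA strand breaks and the p53 response soon after exposure, and for inflammation, loss of small vessels and fibrosis later on. The RV wall is made mostly of cardiomyocytes by mass, with fibroblasts, endothelial cells and macrophages between them, and its cells carry a circadian clock in which BMAL1 and CLOCK or NPAS2 drive a set of repressors that in turn silence them.

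The RNA integrity number (RIN, a 10-point scale of how intact the RNA is) was higher in the gamma libraries, at 6.6 to 9.1 with a median of 8.3, than in the mixed-field libraries, at 4.5 to 8.5 with a median of 5.15. The difference of 2.14 passed an exact two-sided permutation test (p = 0.00466). RIN in the 10 sham libraries was 3.6 to 7.3, lower than in most gamma libraries. Within titles M1 to M20 the RIN of 5 gamma and 3 mixed libraries differed by 0.487 (exact permutation p = 0.214, where the smallest possible value is 0.0179), although without gamma library M17 the difference was 0.692 (exact permutation p = 0.0286). Within titles M21 to M40 the 5 gamma libraries (6.6 to 8.6) and the 5 mixed libraries (4.5 to 5.7) did not overlap, with a difference of 2.96 and the smallest p this design allows (exact permutation p = 0.00794). Because the titles run in blocks, each block was also compared alone. As RIN did not overlap within M21 to M40, RIN and field cannot be told apart there. A comparison there with RIN added cannot separate them, whether a gene passes in it or not.

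Of the 18, 5 libraries held almost no atrial RNA. The summed level of 7 atrial markers was 46.3 to 60.8 CPM (counts scaled to the library size) in the mixed libraries M1, M4 and M5, 50.1 in gamma M36 and 79.5 in gamma M40, against 354 to 3490 in the other 13 libraries. All 3 mixed libraries of M1 to M20 were atrial-poor and none of the 5 gamma libraries was, so within that block field and atrial content cannot be told apart. Mixed library M21 was almost the same in its counts as the 4 sham libraries labelled M12 to M15 on a Western diet (mean chi-square per gene 2.11 to 2.58, where the median pair among the 18 reached 123), although not within sampling noise, and results are also given without it. M22 and M24 were a close pair of the same kind and were summed in that alternative. All 6 ventricular cardiomyocyte markers (Actc1, Myl2, Tnni3, Myh6, Myl3 and Irx4) were detected, with a summed level of 30700 to 60700 CPM, and total counts were 11426111 to 18094658 per library. The labels do not state that each library is a separate mouse, so p-values measure the spread between libraries.

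**Figure D1:**
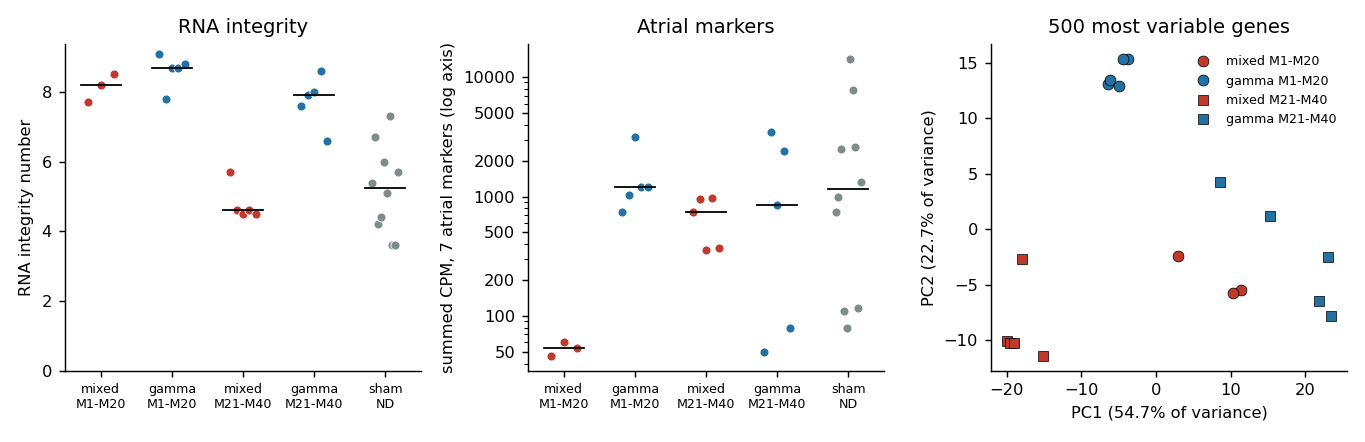
RNA integrity number (left), summed CPM of 7 atrial markers on a log axis (middle) and the first 2 principal components of the 500 most variable genes (right), each point 1 library, red for mixed field, blue for gamma and grey for sham, with black lines at the median. RIN of the 5 mixed libraries of M21-M40 lies at 4.5 to 5.7, below all 5 gamma libraries of that block, and the 3 mixed libraries of M1-M20 lie at or below 60.8 CPM of atrial markers.

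Of 11368 genes with more than 20 counts in each of the 18 libraries, 5216 (45.9%) differed between gamma and mixed field at an adjusted p under 0.05 (quasi-likelihood test of edgeR, adjusted after Benjamini and Hochberg), 2851 higher (25.1%) and 2365 lower (20.8%) in gamma. The balance of this split turned without M40 (2123 higher and 2843 lower) and with no count filter (2191 and 2884). With RIN as a covariate 1108 genes (9.75%) differed, 449 higher (3.95%) and 659 lower (5.8%). That count moved with single mixed libraries of M1 to M20, at 168 without M5, 699 without M4 and 1132 without M1. It was 0 without the 5 atrial-poor libraries, which include gamma M36 and M40 (edgeR), where 1275 genes had an unadjusted p under 0.05 and the mixed libraries left had a RIN of 4.5 to 5.7. Within M1 to M20, 6460 genes (56.8%) differed, with 28% of all genes higher and 28.9% lower. Within M21 to M40, 8204 (72.2%) did, with 39% higher and 33.1% lower. Of these, 2015 (17.7%) differed in the same direction in both blocks and 2678 (23.6%) in opposite directions, so opposite directions were more frequent. The same direction in all 4 comparisons was found for 950 genes (8.36%), 362 higher (3.18%) and 588 lower (5.17%). The 4 are not independent, because the comparisons over the 18 libraries and with RIN hold the libraries of both blocks. Levels did not overlap between the 10 gamma and the 8 mixed libraries for 633 genes (5.57%), of which 195 (1.72%) were higher and 438 (3.85%) lower in gamma.

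The clock activator Clock was higher in gamma. Clock (GRCm39 chr5:76342860-76452846), which pairs with BMAL1 to switch on clock targets, had 26.1 to 31.2 CPM in gamma (median 27.9) and 14.8 to 18.8 CPM in mixed field (median 17.2). No gamma library overlapped a mixed one, and the sham libraries ran from 19.2 to 32.9. Clock was 0.75 ± 0.07 higher in gamma on the log2 scale (SE, adjusted p = 6.77e-06), 0.64 ± 0.08 with RIN as a covariate (adjusted p = 0.000408), 0.66 within M1 to M20 and 0.79 within M21 to M40. With RIN added inside M21 to M40 the difference was 0.776 (adjusted p = 0.0305). Leaving out any 1 library kept its call in all 4 comparisons. Between only the 5 atrial-poor libraries, 2 of gamma and 3 of mixed field, it was 0.583 (adjusted p = 0.0948).

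Bmal1 and Npas2, the partner of CLOCK and a paralog of CLOCK, fell under the count minimum because of their low levels in mixed field. They were picked after their values were seen, so their levels are given with no test. Bmal1 had 6.51 to 13.1 CPM in gamma (median 9.32) and 0.473 to 2.67 in mixed field (median 1.51), with 1.05 to 8.96 in sham libraries. Npas2 had 3.48 to 7.23 CPM in gamma (median 5.48) and 0.632 to 2.56 in mixed field (median 1.56). Neither gene overlapped between the fields. Of the 11368 genes tested, which exclude both, 1.72% were higher in gamma without overlap.

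Genes that the clock drives did not move as one. Of 12 genes of the clock output arm, 2 were higher and 4 lower in gamma over the 18 libraries (median log2 fold change -0.39, against 0.11 over all genes, of which 25.1% were higher and 20.8% lower), and 1 was higher and 5 lower with RIN (median -0.69, against 0.04 and shares of 3.95% and 5.8%). Without M5 none of the 12 passed with RIN, where 0.405% of all genes were higher and 1.07% lower. Of the 4 tested genes of the opposite arm, among them Clock and Cry1, 1 was higher and 2 lower over the 18 libraries. Dbp, a transcription factor of the output arm, was at 61.8 to 149 CPM in gamma (median 106) and 136 to 211 in mixed field (median 154), with only the highest gamma library above the lowest mixed ones. It was lower in gamma by all 4 comparisons (18 libraries: -0.64 ± 0.14, adjusted p = 0.00124), but the call was lost with RIN without M5 (adjusted p = 0.0776), with title block and RIN as covariates (-0.49, adjusted p = 0.079) and with RIN added inside M21 to M40 (-1.07, adjusted p = 0.0523). Ciart, a repressor of CLOCK and BMAL1, ran from 8.26 to 22.6 CPM in gamma (median 10.1) and from 19 to 26.1 in mixed field (median 20.6), so that a few gamma libraries reached the mixed range. Its difference was -0.70 ± 0.19 (adjusted p = 0.00655), and it lost its call without 1 library in 14 of 18 fits with RIN and without any of M1, M4, M5, M16, M17 and M18 within M1 to M20. With RIN added inside M21 to M40 it did not pass either (-0.989, adjusted p = 0.254).

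Bhlhe40, another repressor in the loop, went the other way, at 41.5 to 87.6 CPM in gamma (median 72.7) against 32.5 to 47.9 in mixed field (median 38.7). It overlapped only through gamma library M40 and the mixed libraries M1 and M4, and was 0.83 ± 0.12 higher (adjusted p = 5.27e-05). Inside M21 to M40 with RIN added, where RIN and field cannot be told apart, its value turned to -0.216 (adjusted p = 0.607). Cry1, a core repressor, had 11.7, 13.3 and 14.1 CPM in M1, M4 and M5 and 5.65 to 8.45 in gamma, against 6.16 to 8.39 in the other mixed libraries. It was lower in gamma with RIN (-0.86 ± 0.10, adjusted p = 0.000404) and within M1 to M20 (-0.72), and was at -0.22 within M21 to M40 (adjusted p = 0.127).

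The period genes differed in opposite directions in the 2 blocks, although with RIN added inside M21 to M40 neither passed there (Per2 0.48, adjusted p = 0.445, and Per3 0.831, adjusted p = 0.106). Per2, whose protein represses CLOCK and BMAL1, had 71.1 to 81.6 CPM in M1, M4 and M5 against 12.5 to 19.2 in the gamma libraries of the same block, and 13.1 to 20.7 against 21.3 to 41.8 in the other block. The log2 difference was -2.25 ± 0.12 in M1 to M20 and 0.99 ± 0.18 in M21 to M40, and the interaction of field and block was 3.23 (adjusted p = 3.12e-09). Per3 followed with -1.66 and 0.79 (interaction 2.44, adjusted p = 1.64e-08). With RIN in the model the interactions were 2.86 and 2.38, both past the threshold. Tef, a sister of Dbp, was lower in gamma within M1 to M20 (-0.99 ± 0.09) and at 0.17 within M21 to M40 (adjusted p = 0.289). Hlf, the remaining gene of that family, and Wee1, a cell cycle kinase under clock control, were lower within M21 to M40 (-1.19 and -1.12) and at -0.18 and -0.16 within M1 to M20. Time of day at collection is not in the labels, and its part in these values was not tested.

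A promoter window of each of 4 of these genes is shown, chosen because it holds a known clock element. The windows span 250 bases before to 50 bases after the start of the gene, from RefSeq on build GRCm38.p6, written 5′ to 3′ on the gene's strand. Capitals mark the E-box CACGTG, to which CLOCK and BMAL1 bind, or the core AGGTCA of the element that ROR and REV-ERB receptors bind, each searched on both strands:
Bmal1 chr7:113207261-113207560 (+ strand): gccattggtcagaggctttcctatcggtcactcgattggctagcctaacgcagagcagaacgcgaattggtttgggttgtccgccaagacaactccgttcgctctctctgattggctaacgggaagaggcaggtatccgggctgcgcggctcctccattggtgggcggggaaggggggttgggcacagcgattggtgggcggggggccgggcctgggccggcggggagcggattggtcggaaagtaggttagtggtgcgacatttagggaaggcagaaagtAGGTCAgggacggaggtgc
Cry1 chr10:85185005-85185304 (minus strand): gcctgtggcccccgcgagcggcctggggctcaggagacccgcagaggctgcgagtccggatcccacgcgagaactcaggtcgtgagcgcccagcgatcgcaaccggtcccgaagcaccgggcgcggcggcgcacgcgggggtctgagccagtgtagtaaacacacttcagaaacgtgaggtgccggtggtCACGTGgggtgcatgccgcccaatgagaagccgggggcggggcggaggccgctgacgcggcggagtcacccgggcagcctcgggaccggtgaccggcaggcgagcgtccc
Ciart chr3:95882179-95882478 (minus strand): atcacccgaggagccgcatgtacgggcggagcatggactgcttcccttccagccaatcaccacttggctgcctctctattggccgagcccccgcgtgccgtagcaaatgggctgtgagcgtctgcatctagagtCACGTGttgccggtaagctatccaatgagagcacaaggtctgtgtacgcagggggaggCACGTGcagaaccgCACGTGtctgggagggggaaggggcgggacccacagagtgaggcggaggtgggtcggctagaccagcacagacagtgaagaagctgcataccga
Tef chr15:81802423-81802722 (+ strand): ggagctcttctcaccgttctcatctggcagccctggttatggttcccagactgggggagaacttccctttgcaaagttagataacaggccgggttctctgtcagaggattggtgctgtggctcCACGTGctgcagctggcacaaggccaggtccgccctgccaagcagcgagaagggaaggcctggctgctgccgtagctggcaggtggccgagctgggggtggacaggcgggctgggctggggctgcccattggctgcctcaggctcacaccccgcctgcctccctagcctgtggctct
Of 10 clock genes looked up, 8 had a window. The E-box stands 3 times in the window of Ciart and 1 time each in those shown of Cry1 and Tef, while of the 2 windows of Bmal1 (named Arntl in RefSeq) the one shown holds 1 receptor core, the other holds none, and neither holds the E-box. The windows of Dbp, Npas2 and Per3 held neither run of letters, and 1 of the windows of Clock held the receptor core. Across all windows of the same length, 7.15% hold the E-box and 16.3% the receptor core. These are matches of letters only.

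**Figure D2:**
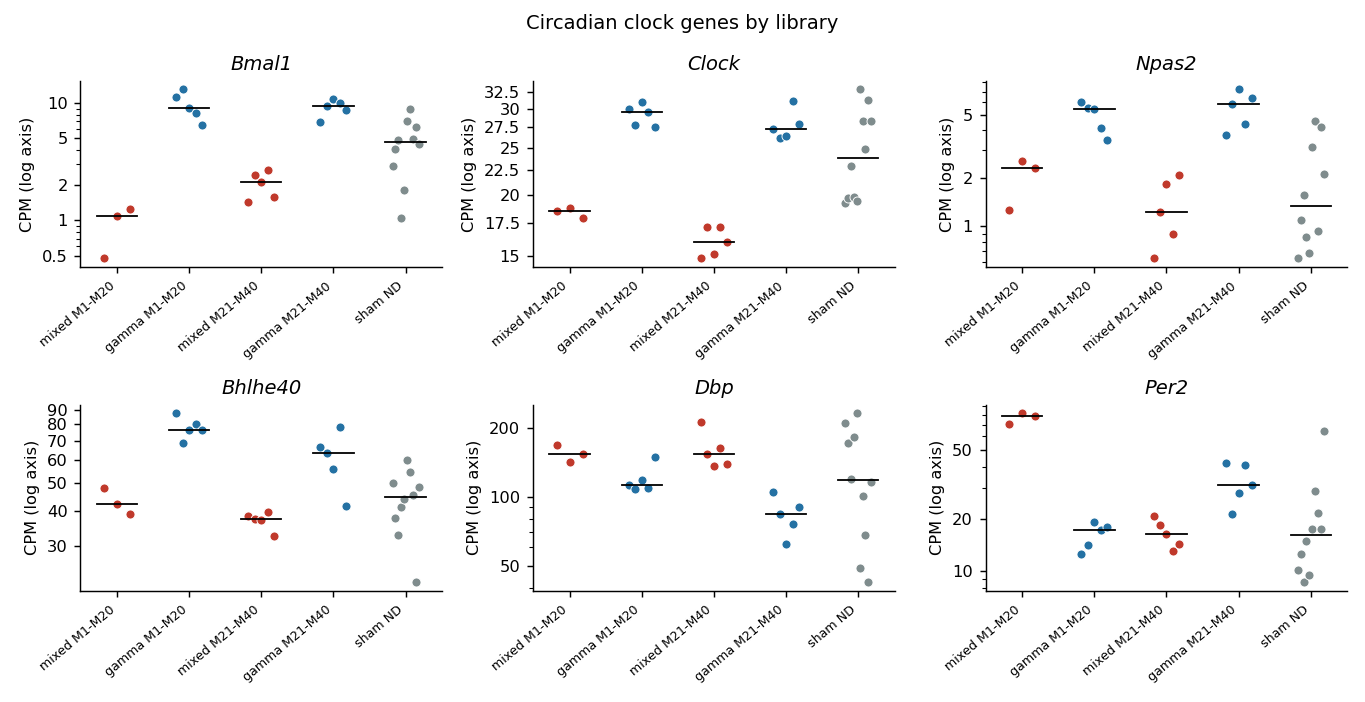
CPM of 6 clock genes on log axes, each point 1 library and each black line a group median, red for mixed field, blue for gamma and grey for the 10 sham libraries. Bmal1, Clock and Npas2 lie higher in every gamma library than in any mixed library, while Per2 is highest in the 3 mixed libraries of M1-M20 (71.1 to 81.6 CPM).

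Extracellular matrix genes were higher in gamma. Of 30 genes in the list of collagens and extracellular matrix, 26 were higher and 1 lower over the 18 libraries, with a median log2 fold change of 0.90 against 0.11 over all genes tested, of which 25.1% were higher and 20.8% lower. With RIN as a covariate 17 were higher and none lower (median 0.82, with 3.95% and 5.8% of all genes). Within M1 to M20 23 were higher and 1 lower (median 0.88, with 28% and 28.9% of all genes), and within M21 to M40 22 were higher (median 0.80, with 39% of all genes). In all 4 comparisons 15 of the 30 were higher, beside 3.18% of all genes. The 10 fibroblast markers moved with the list, with 7 higher and none lower over the 18 libraries, and their summed level was 2260 to 4490 CPM in gamma and 1780 to 2770 in mixed field. In bulk tissue, more fibroblasts and more RNA per fibroblast cannot be told apart.

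Levels of 6 of the 30 did not overlap between the fields. Col3a1, a collagen of loose matrix, had 136 to 366 CPM in gamma (median 273) and 59 to 130 in mixed field (median 87.7), and its levels in sham libraries were 68.2 to 273. The groups did not overlap, and the difference was 1.52 ± 0.18 (adjusted p = 1.57e-05). Col5a2, a collagen that nucleates fibrils, lies next to Col3a1 (GRCm39 chr1:45412554-45542442 and chr1:45350698-45395840) and was 1.46 ± 0.16 higher (adjusted p = 7.93e-06). Col6a3, of the pericellular matrix, was 1.04 ± 0.12 higher, at 45.1 to 56.6 CPM in gamma and 19.1 to 36.7 in mixed field. Fbn1, the main protein of microfibrils, had 46.8 to 84.7 CPM against 19.2 to 44.2 and was 1.31 ± 0.16 higher (adjusted p = 1.47e-05). These 4 genes, Thbs1 and Mmp14 are the members whose levels did not overlap (1.72% of all genes were higher without overlap), and all but Mmp14 and Thbs1 were named after their values were seen. Col1a2, a chain of type I collagen, the main fibrillar collagen, overlapped, at 97.4 to 268 CPM in gamma (median 197) and 77.8 to 107 in mixed field (median 91.2), and was 0.98 ± 0.16 higher (adjusted p = 0.000158).

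Among the matrix regulators, Mmp14, a membrane protease that activates MMP2, had 33.4 to 47 CPM in gamma (median 36.2) and 10.7 to 27.8 in mixed field (median 18.1). Its difference was 0.95 ± 0.14 (adjusted p = 5.72e-05), and 1.33 ± 0.16 with RIN. Mmp2 itself was 1.56 ± 0.25 higher (adjusted p = 0.000112), most of all in the 5 gamma libraries of M1 to M20 (55.9 to 69.5 CPM), and M36 and M40 lay within the mixed range of 10.7 to 22.5. Thbs1, a matricellular protein that activates latent TGF-beta, spread widely in gamma (9.39 to 123 CPM, median 21.3) above a narrow mixed range of 3.77 to 7, and was 2.67 ± 0.44 higher (adjusted p = 0.000134). Timp2, an inhibitor of metalloproteases, was 0.64 ± 0.19 higher over the 18 libraries and 1.29 within M1 to M20, with 0.21 within M21 to M40 (adjusted p = 0.355). Timp4, an inhibitor enriched in the heart and not on the list, went the opposite way, at 10 to 24.1 CPM in gamma (median 14.5) and 32.2 to 121 in mixed field (median 37.8). It did not overlap and was lower by 1.54 ± 0.25 (log2 fold change -1.54, adjusted p = 0.000133), although with RIN added inside M21 to M40 it did not pass (-0.74, adjusted p = 0.269). Tgfb1, the cytokine that drives fibroblasts to make matrix, was the 1 member that was lower over the 18 libraries (-0.43 ± 0.13, adjusted p = 0.00923).

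The matrix result moved with RIN and with single libraries. Inside M21 to M40 with RIN added, 3 of the 30 genes of collagens and extracellular matrix were higher and 5 lower (median -0.37, with 17.5% of all genes higher and 15.8% lower), and Col3a1 and Thbs1 turned to -0.0805 and -1.51, neither past the threshold. Col5a2, Fbn1 and Mmp14 were at 0.159, 0.45 and 0.71 there and did not pass, and Col6a3 did (0.911, adjusted p = 0.0151). Inside M1 to M20 with RIN added, 21 were higher and 1 lower (median 0.95, with 23.2% and 23.9% of all genes). Without M5, 3 were higher with RIN (median 0.66, with 0.405% of all genes). With M21 left out and M22 and M24 summed, 23 were higher and 1 lower over the libraries left (16.2% and 16.5% of all genes), 10 were higher with RIN (286 of all 11368 genes) and 20 within M21 to M40 (4080 of all genes). Without the 5 atrial-poor libraries 26 were higher and 1 lower over the remaining 13 (29.4% and 30.8% of all genes), and 29 were higher within M21 to M40 (median 0.99, with 36.9% of all genes higher and 34.5% lower). Between only the 5 atrial-poor libraries, where 1 of all 11368 genes passed, the median of the 30 was 0.32, against 0.00056 over all genes. The part of RNA integrity in these values was not tested further.

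Macrophage markers split. Of 11 tested, 5 were higher and none lower over the 18 libraries (median 0.31), beside 25.1% and 20.8% of all genes. Mrc1, Cd163 and F13a1, genes of resident cardiac macrophages, and Csf1r, the receptor for their growth factor, were named after their values were seen. Mrc1 had 25.3 to 49.8 CPM in gamma (median 33.1) and 12.8 to 20.9 in mixed field (median 17.8) and was 1.01 ± 0.13 higher (adjusted p = 1.94e-05). Cd163 and F13a1 did not overlap either, with differences of 1.04 ± 0.14 and 1.19 ± 0.19. Csf1r was 0.56 ± 0.13 higher (adjusted p = 0.00149), with 49.1 to 97.1 CPM against 30.4 to 51.3. C1qa, a complement subunit made by macrophages, was at -0.28 (adjusted p = 0.325). The summed level of the 12 macrophage markers was 519 to 1210 CPM in gamma (median 725) and 414 to 896 in mixed field (median 783), so the sum overlapped and its median was lower in gamma. Inside M21 to M40 with RIN added, none of the 11 was higher and 2 were lower, where 17.5% of all genes were higher and 15.8% lower. Without the 5 atrial-poor libraries 5 were higher and 4 lower over the remaining 13, where the shares of all genes were 29.4% and 30.8%.

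Other genes came from the ranking of the largest differences in the comparison with RIN. The differences given for them are those over the 18 libraries unless RIN is named. Cilp and Ltbp2, secreted matrix proteins that bind TGF-beta family factors or their carriers, had medians of 37.3 and 15.8 CPM in gamma against 12.5 and 5.39 in mixed field, and were 1.93 ± 0.35 and 1.90 ± 0.33 higher. Pamr1, Spon2 and C4b, the latter a complement component, were 1.45 ± 0.32, 1.24 ± 0.23 and 1.29 ± 0.30 higher, with gamma libraries overlapping the mixed range in each, and with RIN Spon2 and C4b were at 1.88 and 1.96. With title block and RIN as covariates Cilp did not pass (1.54, edgeR adjusted p = 0.0689). Ltbp2 (1.19, adjusted p = 0.1) and Pamr1 (1.24, adjusted p = 0.0747) did not pass in that fit either. Outside that ranking, Pdgfra, the receptor that marks fibroblasts, did not overlap (30.8 to 51.8 against 14.2 to 23.8 CPM) and was 1.01 ± 0.12 higher. Igfbp5, a secreted binding protein of insulin-like growth factors from the senescence list, was 1.17 ± 0.16 higher (adjusted p = 2.96e-05). Scd4, a fatty acid desaturase of the ranking, was at 1.73 ± 0.51 with RIN (adjusted p = 0.0379) and at 0.73 ± 0.38 over the 18 libraries (adjusted p = 0.118). Its call with RIN was lost with title block added (1.64, edgeR adjusted p = 0.058) and without M5 (1.57, adjusted p = 0.203). It was also lost with M21 left out and M22 and M24 summed (1.78, adjusted p = 0.0604). Plekha7, an adherens junction protein of the ranking, had 6.98 to 23.4 CPM in gamma and 1.63 to 4.26 in mixed field and was 1.91 ± 0.27 higher (adjusted p = 3.92e-05).

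Genes lower in gamma in the ranking with RIN are again given by their differences over the 18 libraries unless RIN is named. Adh1, an alcohol and retinol dehydrogenase, had 6.9 to 15.4 CPM in gamma (median 10.4) and 21.1 to 41.8 in mixed field (median 23.8), with no overlap, and 13.7 to 25.5 in sham libraries. It was lower by 1.27 ± 0.15 (log2 fold change -1.27, adjusted p = 1.21e-05). Shld1, a subunit of shieldin, the complex that protects broken DNA ends from resection, had 14 to 23.7 CPM in gamma (median 16.3) and 26.7 to 64.1 in mixed field (median 48.4). The groups did not overlap, the difference was -1.39 ± 0.15 (adjusted p = 7.7e-06), and Shld1 was among the 1902 genes associated with RIN in the 20 male sham libraries. Ptgds, a prostaglandin D synthase, was at -1.70 ± 0.35. Aqp1, a water channel of capillaries, was at -0.82 ± 0.22, with RIN -1.26, and was highest in M5 (768 CPM). Ddit4 and Zbtb16, which glucocorticoids induce, were at -0.72 ± 0.23 and -0.80 ± 0.31, with RIN -1.08 and -1.505, also with M5 highest (99.5 and 58.7 CPM). Without M5 Ddit4 was at -0.423, and with RIN at -0.531 (adjusted p = 0.286), and Zbtb16 was at -0.473 over the 17 libraries left (adjusted p = 0.148). Zbtb16 lost its call over the 18 libraries without any 1 of 7 libraries, among them M5 and M1. Cys1 and Gnb3 were at -0.87 ± 0.18 and -0.80 ± 0.26, with RIN -1.15 and -1.21.

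Of 54 genes described here that passed with RIN as a covariate, 18 kept their direction and call without each single library in turn: Clock, Cry1, Mmp14, Col5a2, Col6a3, Pdgfra, Mrc1, Cd163, Spon2, Myl3, Tcap, Gpx4, Ifitm1, Ier3, Adh1, Shld1, Aqp1 and Cys1. The other 36 lost the call without M5, among them Col3a1 (adjusted p = 0.0688), Fbn1 (0.0536), Thbs1 (0.2), Timp4 (0.0539), F13a1 (0.103) and Cryab (0.0529). Some of the 36 also lost it without other libraries, as Mmp2 and Dkk3 passed in 5 of these 18 fits and Hlf in 6. With title block and RIN as covariates 11 of the 54 did not pass, among them Thbs1, Csf1r, Myoz2, Hspe1 and Hlf. With RIN and the atrial list mean as covariates 37 kept their call. With the RIN slope fitted over the 28 male ND libraries 27 did. Without the 5 atrial-poor libraries 0 of the 54 kept it with RIN, and 4 turned sign. The mixed libraries left there had a RIN of 4.5 to 5.7, below every gamma library left.

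Sarcomere genes were lower in gamma in part. Of 23 tested, 1 was higher and 11 lower over the 18 libraries (median -0.29), beside 25.1% and 20.8% of all genes, and none was higher and 7 lower with RIN (median -0.32), beside 3.95% and 5.8%. Within M1 to M20 6 were higher and 10 lower (28% and 28.9% of all genes), and within M21 to M40 2 were higher and 18 lower (39% and 33.1%). The 6 ventricular cardiomyocyte markers, all but Irx4 also on the sarcomere list, moved with it, with 1 higher and 4 lower over the 18 libraries. Their summed level was 30677 to 50317 CPM in gamma (median 42866) and 47725 to 60721 in mixed field (median 57481), and did not overlap within M21 to M40. Fewer cardiomyocytes and less of this RNA per cardiomyocyte cannot be told apart. Myl3 (GRCm39 chr9:110570929-110599396), the essential light chain of ventricular myosin, had 3503 to 5423 CPM in gamma (median 4767) and 8409 to 12302 in mixed field (median 10472), with 2226 to 17443 in sham libraries. The 2 irradiated groups did not overlap and differed by -1.18 ± 0.12 (adjusted p = 6.77e-06), and by -0.95 ± 0.12 with RIN. Tcap, the protein that caps titin at the Z-disc, had 1647 to 3153 CPM against 3827 to 4824 and was at -1.06 ± 0.13 (adjusted p = 1.81e-05). Tnnc1, cardiac troponin C, was at -0.92 ± 0.16 (adjusted p = 0.000208), with RIN -0.63, a value that turned to 0.0566 without the 5 atrial-poor libraries. Myl2, the regulatory light chain, overlapped through M40 (9458 CPM) and was at -0.92 ± 0.16. Myoz2, a Z-disc protein named after its values were seen, did not overlap (384 to 640 against 677 to 1190 CPM). Inside M21 to M40 with RIN added, 2 sarcomere genes were higher and 2 lower (17.5% and 15.8% of all genes), and Myl3 and Tcap did not pass (-0.726, adjusted p = 0.0741, and -0.193, adjusted p = 0.583).

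Nuclear genes of the respiratory chain were mostly lower in gamma. Of 85 genes of oxidative phosphorylation, none was higher and 78 were lower over the 18 libraries (median -0.87, with 20.8% of all genes lower), and 39 were lower with RIN (median -0.49, with 5.8%). Within M1 to M20 5 were higher and 70 lower (median -0.79, with 28.9% of all genes lower), and within M21 to M40 81 were lower (median -0.88, with 33.1%). Levels of 28 were lower without overlap (3.85% of all genes), and 49 of the 85 were associated with RIN among sham libraries (16.7% of all genes). Atp5f1e, a small subunit of ATP synthase, had 291 to 853 CPM in gamma (median 421) and 698 to 1119 in mixed field (median 925), and only gamma library M40 reached the mixed range. It was at -0.96 ± 0.20 (adjusted p = 0.000703), and -0.52 with RIN (adjusted p = 0.0852). Uqcr11 of complex III and Ndufa2 and Ndufa13 of complex I were lower as well, the latter pair at -0.91 ± 0.22 and -0.86 ± 0.20, and with RIN the 3 were at -0.57, -0.48 and -0.45, which did not pass. Of 13 genes of the mitochondrial genome, 2 were higher and 9 lower over the 18 libraries (25.1% and 20.8% of all genes), and 2 were lower with RIN (5.8%). mt-Co2 and mt-Co3, subunits of complex IV, were at -0.87 ± 0.17 and -0.79 ± 0.17. Between only the 5 atrial-poor libraries, where 1 of all 11368 genes passed, the median of the 85 was -0.25, and without M5 8 were lower with RIN (1.07% of all genes). With both title block and RIN as covariates 65 were lower (median -0.67, with 7.87% of all genes higher and 11% lower).

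Cytosolic ribosomal proteins, the building blocks of the translation machinery, were lower in 80 of 82 over the 18 libraries (median -0.73, with 20.8% of all genes), in 78 within each block (28.9% and 33.1% of all genes), and in 5 with RIN (median -0.28, with 5.8%). Of the 82, 72 were associated with RIN among sham libraries, beside 16.7% of all genes. Rpl36 had 129 to 398 CPM in gamma (median 194) and 273 to 502 in mixed field (median 408), and overlapped in the gamma libraries of M21 to M40. It was at -0.86 ± 0.22, and -0.37 with RIN (adjusted p = 0.304). Rpl38 and Rps15 were at -0.75 ± 0.23 and -0.91 ± 0.20. Between only the 5 atrial-poor libraries all 3 were above 0 (0.138, 0.322 and 0.021, none past the threshold), and the median of the 82 was 0.03. With title block and RIN as covariates 74 were lower (median -0.65, with 11% of all genes), and without M5 none passed with RIN (0.405% of all genes were higher there and 1.07% lower). Many of these genes have processed pseudogenes, whose reads the counting could have split. The part of RNA integrity in these values was not tested further.

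Antioxidant genes were lower in 14 of 24 and higher in 1 over the 18 libraries (median -0.50, with 20.8% and 25.1% of all genes), and lower in 7 with RIN (median -0.39, with 5.8%). Within M1 to M20 5 were higher and 9 lower (median -0.07), close to the shares of all genes (28% and 28.9%), and within M21 to M40 1 was higher and 16 lower (median -0.79, with 39% and 33.1%). Of the 24, the interaction of field and block was lower in 14 and higher in 1 (31% and 35.4% of all genes). Gpx4, which reduces lipid peroxides in membranes, had 421 to 628 CPM in gamma (median 546) and 894 to 1325 in mixed field (median 1185), without overlap, and was at -1.06 ± 0.12 (adjusted p = 7.93e-06). Prdx5, a peroxiredoxin of mitochondria and peroxisomes, had 284 to 528 CPM against 575 to 878 and was at -0.87 ± 0.14. Gpx4 was among the genes associated with RIN in sham libraries. The small heat shock protein Cryab, a chaperone of desmin and titin, had 993 to 1520 CPM in gamma and 1813 to 3189 in mixed field and was at -0.99 ± 0.13 (adjusted p = 2.33e-05). Ier3, an immediate early gene that modulates cell survival, was at 22.8 to 40.9 CPM in gamma and 57.8 to 96 in mixed field, with 39.7 to 73.3 in sham libraries, and at -1.21 ± 0.13 (adjusted p = 6.77e-06). Ifitm1, an interferon-induced membrane protein, was at -1.55 ± 0.21 without overlap (1.68 to 4.66 against 4.67 to 13 CPM).

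**Figure D3:**
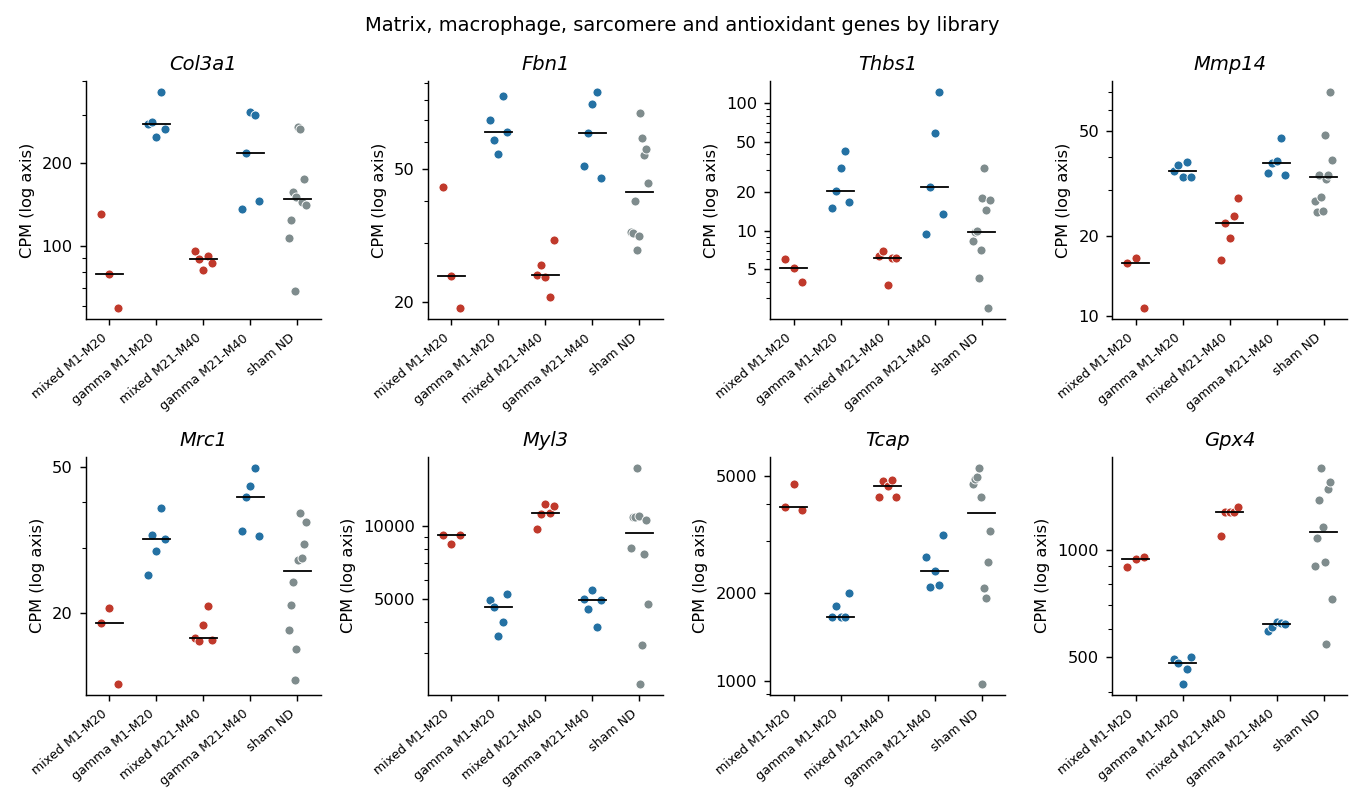
CPM of 8 genes on log axes, each point 1 library and each black line a group median, red for mixed field, blue for gamma and grey for the 10 sham libraries. Col3a1, Fbn1, Thbs1, Mmp14 and Mrc1 lie higher, and Myl3, Tcap and Gpx4 lower, in every gamma library than in any mixed library.

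Of the tested members of the lists of p53 target genes and of DNA repair, which ionizing radiation is known to engage, none passed with RIN by edgeR, where 9.75% of all genes did. Shld1, which passed with RIN, is not on the DNA repair list. Of 25 p53 target genes, 7 were higher and none lower over the 18 libraries (median 0.10, against 0.11 over all genes, of which 25.1% were higher and 20.8% lower). With RIN none passed by DESeq2 either, which called 756 of all 11368 genes higher and 931 lower, and 1 had an unadjusted p under 0.05 by edgeR, as had 2861 of all 11368 genes. Within M1 to M20 6 were higher and 4 lower (28% and 28.9% over all genes), and within M21 to M40 11 were higher and 6 lower (39% and 33.1%). Ccng1, a cyclin that p53 induces, was higher in gamma within M1 to M20 (0.61 ± 0.13) and lower within M21 to M40 (-0.76 ± 0.13). Bax, which permeabilizes mitochondria in apoptosis, was at -1.12 ± 0.12 within M1 to M20 and at 0.13 within M21 to M40 (adjusted p = 0.362). Of 28 DNA repair genes, 9 were higher and 7 lower over the 18 libraries, and none passed with RIN by edgeR (10 at an unadjusted p under 0.05), where DESeq2 called 1 higher and 1 lower, beside the same 756 and 931 of all genes.

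**Figure D4:**
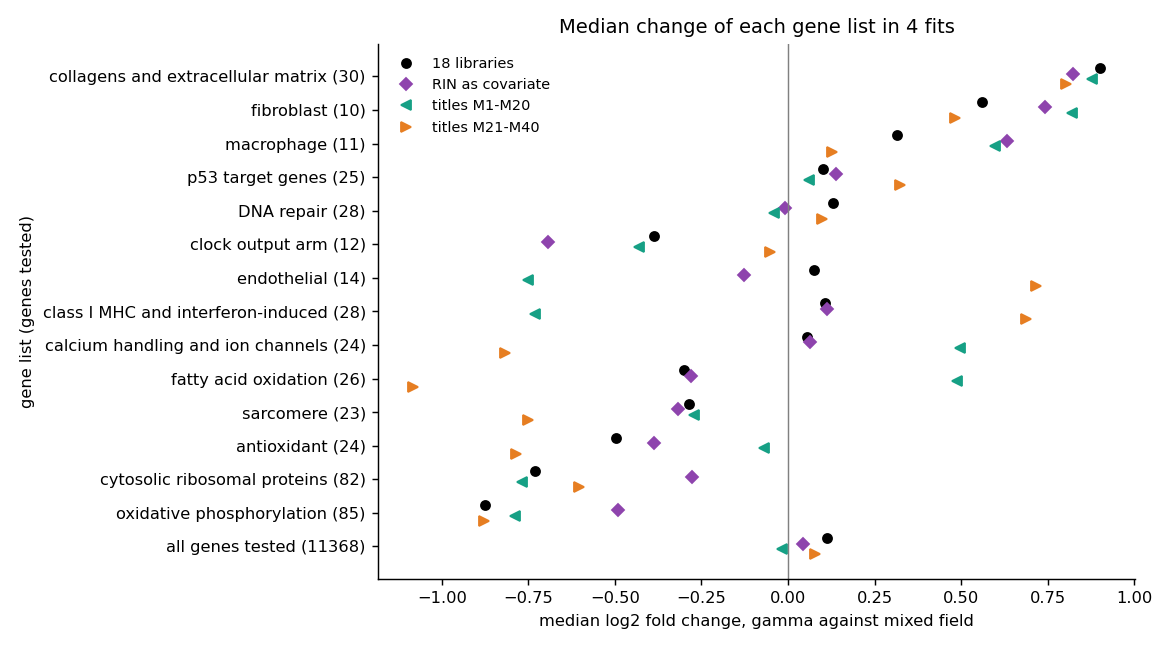
Median log2 fold change of gamma against mixed field for 14 gene lists and all genes tested, in the comparison of 18 libraries (circles), with RIN as covariate (diamonds), within titles M1-M20 (left triangles) and within M21-M40 (right triangles). The 4 medians of collagens and extracellular matrix lie between 0.80 and 0.90, while those of fatty acid oxidation run from -1.08 to 0.49.

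Several functional groups differed in opposite directions in the 2 blocks. Of 26 genes of fatty acid oxidation, the main fuel pathway of the adult heart, 14 were higher and 3 lower in gamma within M1 to M20 (median 0.49), and 1 was higher and 21 lower within M21 to M40 (median -1.08). Of all genes, 28% were higher and 28.9% lower within M1 to M20, and 39% and 33.1% within M21 to M40. Acsl1, which activates long-chain fatty acids, had 728 to 870 CPM in gamma against 238 to 419 in mixed field in the first block, and 175 to 325 against 381 to 543 in the second. It did not overlap in either block, at 1.24 ± 0.16 and -0.95 ± 0.15. Ppargc1a, a coactivator of mitochondrial genes, followed with 0.70 ± 0.11 and -0.65 ± 0.15. Of 24 genes of calcium handling and ion channels, 16 were higher and 1 lower within M1 to M20, and 2 were higher and 19 lower within M21 to M40. Kcnj12 and Kcnd2, potassium channels that shape repolarization, were at 1.61 and 1.41 in the first block and at -1.41 and -1.19 in the second. Gja1, the gap junction protein connexin 43, was at 1.29 ± 0.11 and -0.38 ± 0.10.

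The immune and vessel lists were opposed in the reverse sense. Of 28 class I MHC and interferon-induced genes, none was higher and 20 were lower in gamma within M1 to M20 (median -0.73), and 20 were higher and none lower within M21 to M40 (median 0.69), where the shares of all genes were 28% and 28.9% in the first block and 39% and 33.1% in the second. The summed level of 12 lymphocyte markers moved with the list in M21 to M40, at 43 to 90.3 CPM in gamma and 21.9 to 36.1 in mixed field without overlap, and overlapped in M1 to M20 (18.9 to 26 against 21 to 30.8), and its part in the result was not tested. Irf1 and Xaf1, both induced by interferon, were at -0.63 and -1.10 in the first block and at 0.71 and 0.99 in the second, and Bst2 at -1.39 and 0.04, the latter not past the threshold. Of 14 endothelial markers, 9 were lower within M1 to M20 and 12 higher within M21 to M40. The summed endothelial level was 2190 to 2410 CPM in gamma and 3530 to 4530 in mixed field in the first block, and 3080 to 4460 against 2420 to 2900 in the second, without overlap in either. With RIN added within each block the medians of these 4 lists kept their signs, with fewer genes past the threshold in M21 to M40. In those fits 23.2% of all genes were higher and 23.9% lower in the first block, and 17.5% and 15.8% in the second. Fatty acid oxidation had 8 higher and 2 lower in the first block (median 0.36) and 2 higher and 14 lower in the second (median -0.996), and calcium handling and ion channels had 16 higher (median 0.53) and then 1 higher and 6 lower (median -0.51). The class I MHC and interferon-induced list had 10 lower (median -0.60) and then 7 higher (median 1.05), and the endothelial markers 8 lower (median -0.59) and then 10 higher (median 0.98). Of the genes named here, Ppargc1a (-0.424, adjusted p = 0.497), Gja1 (-0.401, adjusted p = 0.291) and Irf1 (1.03, adjusted p = 0.0703) did not pass in M21 to M40 with RIN, and Acsl1, Kcnj12, Kcnd2 and Xaf1 did.

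**Figure D5:**
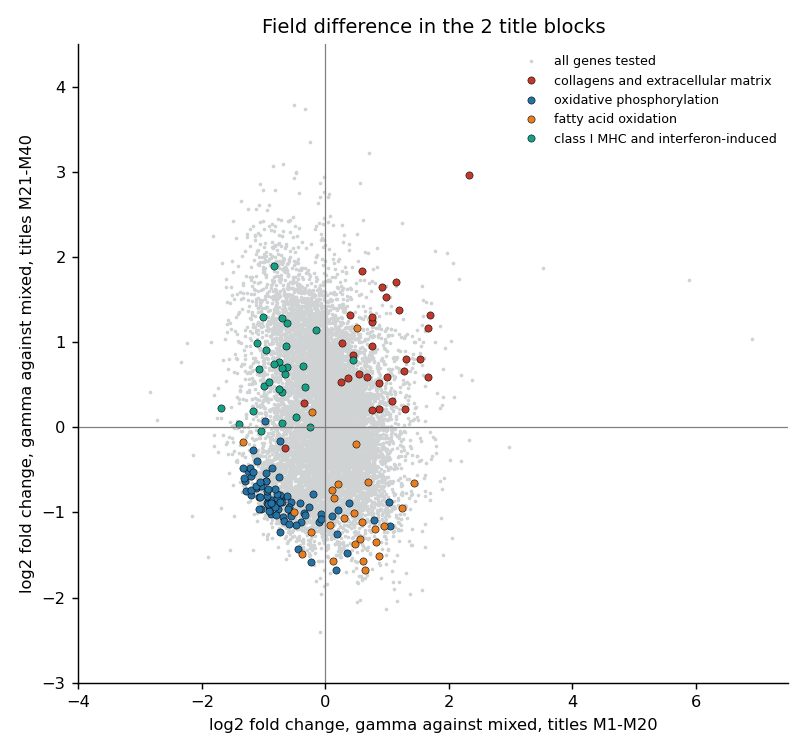
Log2 fold change of gamma against mixed field within titles M1-M20 (horizontal) and M21-M40 (vertical) for 11368 genes (grey) and 4 gene lists (colours). Collagens and extracellular matrix lie mostly where both are positive and oxidative phosphorylation where both are negative, while fatty acid oxidation and the class I MHC and interferon-induced genes lie in the opposed quadrants.

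The difference between the blocks was itself tested. The interaction of field and block passed for 7555 genes (66.5%), 4026 higher (35.4%) and 3529 lower (31%), and for 6701 with RIN in the model. The balance of this split turned without M40 (3381 higher and 4213 lower) and with no count filter (4820 and 5128). It also turned by DESeq2 (3746 and 3891) and with DESeq2 size factors in edgeR (3722 and 3849). Adra1b, an adrenergic receptor of cardiomyocytes, had 62.5 to 71.6 CPM in gamma and 17.4 to 26.6 in mixed field within M1 to M20, and 11.8 to 30.7 against 54.6 to 80 within M21 to M40. Its levels split the 18 libraries into M16 to M25, at 54.6 CPM or above, and the other 8, at 30.7 CPM or below, a split that follows the titles and not the field. Agrn, a basement membrane proteoglycan, divided in the opposite sense (42 to 115 CPM in M16 to M25 and 197 to 513 in the others). Cenpf, a kinetochore protein, and Ubxn10, a ciliary adaptor, followed Adra1b, with 2.06 and 1.90 in the first block and -1.30 and -1.49 in the second, where with RIN added neither passed (-0.537, adjusted p = 0.162, and -1.14, adjusted p = 0.0808). Oas2, an interferon-induced sensor of RNA, followed Agrn with -1.83 in the first block and 2.25 in the second, and Paxbp1 with -0.85 and 3.07. Sned1, a matrix protein, was at -0.33 (adjusted p = 0.0929) and 3.74.

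Principal components of the 500 most variable genes separated the same groups. The first (54.7% of the variance) ran from -6.38 to -3.75 in gamma and from 2.98 to 11.4 in mixed field within M1 to M20, and from 8.58 to 23.5 in gamma and from -19.9 to -15.1 in mixed field within M21 to M40. Gamma lay below mixed field in the first block and above it in the second. As the libraries fell into separate clusters by field and block, and RIN differed with them, no test of the components against field, block or RIN is given.

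Some of the largest differences rested on 1 or a few libraries or followed the atrial content. Dkk3 and Myl4, members of the atrial marker list, and Sbk2, a kinase high in atria, were at 5.89, 6.91 and 2.97 within M1 to M20, where all mixed libraries were atrial-poor. Pam, an enzyme that amidates peptides and is abundant in atrial granules, was at 2.37 ± 0.25 there, and at -0.643 between only the 5 atrial-poor libraries (not past the threshold). Comp, a cartilage and tendon matrix protein, was highest in M39 and M19 (147 and 101 CPM) and was 2.29 ± 0.52 higher over the 18 libraries. Gimap3, a GTPase of lymphocytes, was at 173 CPM in gamma library M36 and at 10.7 or less in the other 17, and its value of 2.76 ± 0.89 (adjusted p = 0.0165) was 0.646 without M36 and did not pass. Itga2b, the platelet integrin, was at 304 CPM in M39, which also held the most red blood cell RNA, and its value of 2.35 ± 0.91 (adjusted p = 0.0419) was lost in most fits that left out 1 library, with 0.413 without M39. Rn18s-rs5, an annotated copy of 18S ribosomal RNA, and Mir6236 were highest in M1, M4 or M5 (up to 65845 and 49 CPM), and Mir6236 did not pass over the 18 libraries without M1 or without M5. DESeq2 did not call Gimap3, Itga2b or Mir6236 over the 18 libraries (adjusted p = 0.136, 0.635 and 0.0855).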

How the data were processed

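Poly-A RNA of mouse RV tissue was sequenced on a NovaSeq-6000. Per the submitters' processing notes the authors used FastQC 0.11.9, STAR 2.7.8a and the mm39 (GRCm39) genome. The deposited values are raw counts per gene, which the authors made by counting reads over the final 500 bp of each gene's 3′ end. The annotation release and strand setting are not given in the sources used here.

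Genes with more than 20 counts in each of the 18 libraries were tested (11368 of 56941). Fits used edgeR 4.0.16 in R 4.3.3 (TMM scaling, quasi-likelihood test, Benjamini-Hochberg adjustment, threshold 0.05), once over the 18 libraries, once with RIN as a covariate, once within each block of titles and once for the interaction. DESeq2 1.42.0 was an alternative, and the fits were tested on simulated data. SEs are the log2 fold change divided by the square root of F. CPM were scaled over the 28 male ND libraries. Gene lists were described by their counts and medians, without a set test. Positions are from GENCODE on GRCm39.

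Members and lists were chosen with earlier results of these data known. Genes were named by rule: the 10 highest and 10 lowest of those past the threshold with RIN and alike in direction throughout, the 5 highest and 5 lowest over the 18 libraries, in M1 to M20 and in the interaction, and up to 4 of each list by p. Some genes picked by this rule are not reported here. Named after their values were seen were Bmal1, Npas2, Dbp, Ciart, Hlf, Wee1, Col3a1, Col5a2, Col6a3, Fbn1, Pdgfra, Mrc1, Cd163, F13a1, Csf1r, C1qa, Myoz2, Hspe1, Errfi1, Nr4a1 and Fos.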

Additional observations from a re-analysis of the deposited data

Results flagged for a closer look

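Of 212 sets of library values (gene levels and summed marker levels in 1 field), 28 held a library far from the rest of its group, and chance gives about 1 in 20 of such sets. Mixed library M5 stood apart in 8 and gamma library M39 in 8. M5 was highest for Timp4 (121 CPM, next 46.1), Adh1 (41.8, next 27), Ddit4 (99.5, next 46), Zbtb16 (58.7, next 26.2) and Rn18s-rs5 (65800, next 25900), for the summed adipose markers (289, next 220) and the summed smooth muscle and pericyte markers (1250, next 1030), and lowest for Csf1r (30.4, next 41.7). M39 was highest for Mmp14 (47, next 38.4), Thbs1 (123, next 59), Pamr1 (28.7, next 16.2), Myoc (57.8, next 35.8), F13a1 (88.4, next 60.5), Cys1 (12.9, next 8.92), Itga2b (304, next 44.8) and the summed red blood cell markers (3280, next 906).

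Gamma library M36 was highest for Gimap3 (173 CPM, next 10.7), Irf1 (70.1, next 46.5) and the summed lung epithelial markers (3.28, next 2.05). M40 was highest in gamma for Atp5f1e (853, next 588), M16 for Gnb3 (8.94, next 4.94) and M18 for Dkk3 (401, next 211). Among mixed libraries M21 was highest for Dbp (211, next 168) and Ltbp2 (8.3, next 5.58), M1 for Fbn1 (44.2, next 30.6) and the summed mesothelial markers (24, next 15.4), M25 for Spon2 (6.49, next 3.84), and M24 was lowest for the summed lung epithelial markers (0.616, next 1.25).

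The difference between gamma and mixed field was not the same in the 2 blocks of titles by the interaction term for 7555 genes. In the mixed libraries the mean RIN (8.13 and 4.78) and the summed atrial markers (46.3 to 60.8 and 354 to 968 CPM) also differed between M1 to M20 and M21 to M40. Field, RIN and atrial content cannot be told apart in this term. The log2 value of the interaction was 3.23 for Per2, 2.44 for Per3, 4.03 for Agrn, 4.07 for Oas2, 3.92 for Paxbp1 and 4.07 for Sned1. It was -3.47 for Adra1b, -3.36 for Cenpf and -3.40 for Ubxn10.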

How the results depend on the processing

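The count with RIN as a covariate (1108 genes) was the least stable. It was 1687 by DESeq2, 2147 with title block added, 4177 with the atrial list mean added, 293 with the RIN slope fitted over the 28 male ND libraries, 0 without the 5 atrial-poor libraries, and 168 (without M5) to 1308 when 1 library was left out, with 699 without M4. Between only the 5 atrial-poor libraries 1 gene passed. With RIN added within M21 to M40, 3782 passed. Leaving out 1 library gave 4395 to 5796 genes over the 18 libraries, 5692 to 6615 in M1 to M20, 7792 to 8344 in M21 to M40 and 7017 to 7783 for the interaction. With M21 left out and M22 and M24 summed, 3710 passed over the 18 libraries (1836 higher, 1874 lower) and 758 with RIN. The split of 2851 higher and 2365 lower became 2191 and 2884 with no count filter, 2123 and 2843 without M40, and 2473 and 2590 with DESeq2 size factors. The RIN difference in M1 to M20 was 0.27 to 0.692 with 1 library left out, 0.692 without M17 (exact permutation p = 0.0286), and ranged from 1.92 to 2.49 over the 18 libraries and from 2.75 to 3.25 in M21 to M40.

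Of 4790 alternatives for 214 results of 90 genes, 4402 kept direction and call, 377 fell below the threshold and 11 turned sign. With RIN and without the atrial-poor libraries these were Bhlhe40 (-0.0285), Per2 (0.132), Tnnc1 (0.0566) and Rn18s-rs5 (1.04). Between only the atrial-poor libraries they were Rpl36 (0.138), Rpl38 (0.322), Rps15 (0.021) and Pam (-0.643). With RIN within M21 to M40, of 32 gene results 13 kept direction and call, 16 fell below the threshold and 3 turned sign, namely Bhlhe40 (-0.216), Col3a1 (-0.0805) and Thbs1 (-1.51). The cause was not tested. No paired analysis was possible because the titles share no replicate numbers between the groups and those used were given in accession order.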

Other observations

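Immediate early genes, which respond within minutes to stimulation, were higher in gamma in 8 of 17 and lower in 2 over the 18 libraries (median log2 fold change 0.26), beside 25.1% higher and 20.8% lower of all genes, while none was higher and 1 lower with RIN (3.95% and 5.8% of all genes). Within M1 to M20 3 were higher and 4 lower (28% and 28.9% of all genes). Within M21 to M40 10 were higher and 2 lower (39% and 33.1% of all genes). Nr4a1, an orphan nuclear receptor, had 23.6 to 110 CPM in gamma (median 73.8) and 21.4 to 46.7 in mixed field (median 25.9), and was 1.26 ± 0.28 higher (edgeR, adjusted p = 0.00139). Fos was 1.13 ± 0.31 higher (adjusted p = 0.00586), and with RIN neither passed (adjusted p = 0.122 for Nr4a1 and 0.13 for Fos). Both ranges overlapped between the fields.

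Glucocorticoid-induced genes were higher in 1 and lower in 5 of 16 over the 18 libraries (25.1% and 20.8% of all genes), and higher in 3 and lower in 9 within M1 to M20 (28% and 28.9% of all genes). Within M21 to M40 4 were higher and 5 lower (39% and 33.1% of all genes). With RIN 1 was higher and 2 lower (3.95% and 5.8% of all genes). Errfi1, a feedback inhibitor of the EGF receptor, was the member that was higher in all 4 comparisons. It had 18.5 to 48.6 CPM in gamma (median 32.7) against 12.5 to 22.2 in mixed field (median 14.5), with a difference of 1.08 ± 0.16 (adjusted p = 4.56e-05). Without M5 it did not pass with RIN (0.88, edgeR adjusted p = 0.0669). Between only the 5 atrial-poor libraries it was at 0.701 (adjusted p = 0.105). Mt1, a metallothionein that binds zinc, was at 62.9 to 204 CPM in gamma (median 119) and at 175 CPM or above in mixed field (median 262) and at -1.28 ± 0.25 (adjusted p = 0.000544), but with RIN it did not pass (-0.70, adjusted p = 0.0898). Of 16 heat shock genes, 2 were higher and 5 lower over the 18 libraries (25.1% and 20.8% of all genes). Within M1 to M20 6 were higher and 3 lower (median 0.08, with 28% and 28.9% of all genes). Within M21 to M40 2 were higher and 10 lower (median -0.49, with 39% and 33.1% of all genes). Hspe1, the mitochondrial co-chaperonin, did not overlap (61.8 to 93.2 against 94.7 to 202 CPM) and was at -1.02 ± 0.15 (adjusted p = 5.39e-05).

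Of 9 cardiac stress genes, none was higher and 2 were lower over the 18 libraries, where 25.1% of all genes were higher and 20.8% lower. Myh7, the slow myosin heavy chain that returns in the stressed heart, was at -0.58 ± 0.15 within M1 to M20 and at 0.88 ± 0.16 within M21 to M40. Xirp1, an actin-binding protein of the intercalated disc, turned the other way, at 1.09 ± 0.10 and -0.72 ± 0.10. Of 10 senescence genes and secreted factors, 2 were higher and 1 lower over the 18 libraries, beside the same shares, with Mmp3, a matrix protease, at 1.30 ± 0.36 (adjusted p = 0.0068).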
